A study of Mus musculus with 12 samples.

Results

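The calcium handling genes of heart muscle examined were Atp2a2, Ryr2, Pln, Casq2, Slc8a1, Cacna1c, Trdn, Jph2 and Hrc. They were chosen by name, and all 9 were found among the 55679 genes of the table, each on 1 row. RNA came from whole heart and whole lung of 6 male mice of the 129S6/SvEvTac strain, aged 9 to 13 weeks. The WT group held 3 mice without a changed Adam19 allele, and the KO group held 3 mice homozygous for Adam19-tdTomato, an allele in which a tdTomato construct replaces exons 6 and 7 of Adam19 throughout the body. No mouse was treated, and heart and lung libraries with the same genotype and replicate number came from the same animal, so that 12 libraries stood for 6 mice.

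A heart muscle cell contracts when calcium that enters through the L-type channel opens ryanodine receptors on the sarcoplasmic reticulum (SR), the calcium store of the cell, and more calcium flows out. The cell relaxes when the SR pump SERCA takes calcium back up and the sodium-calcium exchanger moves the rest out across the cell membrane. In the lung, heart muscle cells line the large pulmonary veins of the mouse, and smooth muscle, endothelium and other cells use some of the same genes.

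The summed estimated counts were 18392292 to 35862932 in the hearts and 17674788 to 28043361 in the lungs. Gene values are on the log2 scale on which the authors deposited them, so a difference of 1 is a 2-fold difference. Adam19 lay between 9.17 and 10.27 in WT hearts and between 6.01 and 6.67 in KO hearts, and between 9.12 and 9.41 in WT lungs and 3.21 and 4.44 in KO lungs. The log2 of the summed level of 12 heart muscle markers was 21.72 to 21.98 in the 6 hearts and 14.38 to 15.50 in the 6 lungs, and that of 8 lung epithelium markers was 18.90 to 19.19 in the lungs and 6.44 to 10.75 in the hearts, so both tissue labels held. The small RNA gene Rn7s1 took 2.10% to 34.0% of the summed abundance of a lung library. Since whole organs were used, fewer cells of a type and less RNA per cell cannot be told apart in any value below.

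All 9 genes were much higher in heart than in lung, and none passed the test between KO and WT in either tissue. A gene was called when its adjusted p (limma on the log2 values, Benjamini-Hochberg over all genes tested) was under 0.05, its change was at least 1.5-fold and its mean was at least 6 in 1 of the groups. In WT mice 9 of 9 were called higher in heart, against 20.1% of the 17666 genes tested, and in KO mice again 9 of 9, against 20.9%. The largest adjusted p of the 9 was 1.9e-09 in both genotypes (limma). The median heart minus lung difference of the 9 was 6.28 in WT and 6.05 in KO, and the median over all genes tested was −0.32 and −0.29. Centring each library on its median moved the median of all genes in WT from −0.32 to −0.07, the range of the 9 from 4.12 to 7.97 to a range of 4.37 to 8.22, and the calls over all genes from 3547 higher and 5179 lower in heart to 4422 higher and 4216 lower.

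**Figure D1:**
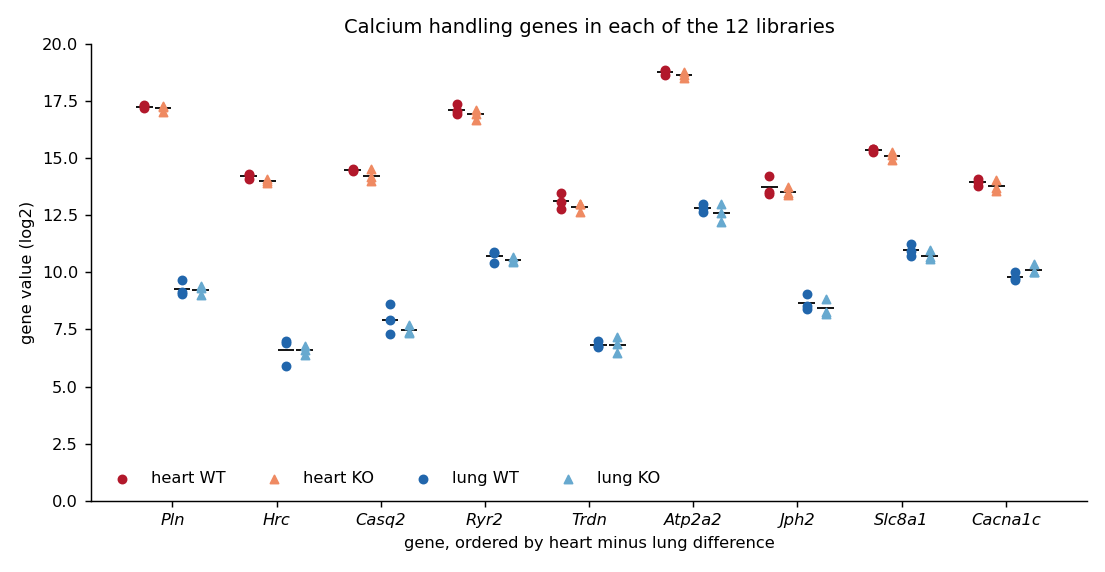
Deposited gene value on the log2 scale (vertical axis) of the 9 calcium handling genes in each of the 12 libraries, with 3 hearts and 3 lungs of each genotype and the group mean as a short line. Heart points lie above lung points for every gene in every mouse, by 3.24 (Cacna1c) to 8.37 (Hrc), while WT and KO points of a tissue lie close together.

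Calcium entry and release open the cycle. Cacna1c (chromosome 6, 118564201 to 119173851, minus strand, GRCm39) encodes the pore of the L-type calcium channel. Its log2 value was 13.78, 13.95 and 14.09 in the WT hearts, 13.68, 14.04 and 13.58 in the KO hearts, 10.02, 9.76 and 9.68 in the WT lungs and 10.01, 10.01 and 10.35 in the KO lungs. It had the smallest tissue difference of the 9, 4.12 in WT and 3.64 in KO (limma, SE 0.16 each), and the lung level was 4.68% to 10.6% of the heart level of the same mouse. KO and WT overlapped in both tissues.

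Ryr2 (chromosome 13, 11567988 to 12121870, minus strand) encodes the cardiac ryanodine receptor, the release channel of the SR. Its log2 value was 16.95, 17.36 and 17.06 in the WT hearts and 16.69, 17.13 and 16.92 in the KO hearts. In the lungs it was 10.41, 10.88 and 10.86 in WT and 10.49, 10.45 and 10.69 in KO, and the groups overlapped in both tissues. The tissue difference was 6.40 in WT and 6.37 in KO (limma, SE 0.18 each), so that lung stood at 0.979% to 1.37% of heart within a mouse.

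The junction between the cell membrane and the SR is held by Jph2 (chromosome 2, 163178162 to 163239920, minus strand), the junctophilin of heart muscle, which anchors the membranes to each other. Values on the log2 scale were 13.45, 13.51 and 14.20 in the WT hearts, 13.49, 13.73 and 13.40 in the KO hearts, 9.05, 8.53 and 8.39 in the WT lungs and 8.82, 8.20 and 8.28 in the KO lungs. The WT heart of replicate 3 stood above the other 5 hearts. Heart exceeded lung by 5.07 in WT and 5.11 in KO (limma, SE 0.24 each).

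Trdn (chromosome 10, 32956550 to 33356376, plus strand) encodes triadin, which links calsequestrin to the ryanodine receptor. Values on the log2 scale were 13.08, 13.46 and 12.78 in the WT hearts and 12.65, 12.98 and 12.9996 in the KO hearts, and 6.79, 6.98 and 6.71 in the WT lungs and 7.18, 6.45 and 6.87 in the KO lungs. The groups overlapped in both tissues. The tissue difference was 6.28 in WT and 6.04 in KO (limma, SE 0.21 each).

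Casq2 (chromosome 3, 101993234 to 102056307, plus strand) encodes cardiac calsequestrin, the main calcium buffer inside the SR. Its log2 value was 14.53, 14.49 and 14.46 in the WT hearts, 14.02, 14.18 and 14.52 in the KO hearts, 7.90, 7.29 and 8.60 in the WT lungs and 7.69, 7.36 and 7.38 in the KO lungs. The 3 WT hearts lay within 0.08 of each other, and 1 KO heart lay among them. Heart exceeded lung by 6.56 in WT and 6.76 in KO (limma, SE 0.26 each).

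Hrc (chromosome 7, 44984681 to 44988401, plus strand) encodes the histidine-rich calcium binding protein of the SR lumen. Libraries read, on the log2 scale, 14.08, 14.29 and 14.28 in the WT hearts, 13.92, 14.01 and 14.08 in the KO hearts, 7.02, 6.90 and 5.91 in the WT lungs and 6.76, 6.39 and 6.61 in the KO lungs. The highest KO heart, at 14.0820, fell just under the lowest WT heart, at 14.0821, and the lungs overlapped. In heart 13% of all genes tested did not overlap. The tissue difference was 7.61 in WT and 7.42 in KO (limma, SE 0.23 each). With 72.4 to 129 estimated counts in a lung library, against at least 11435 in a heart library, Hrc and Trdn (81.1 to 148) rested on the fewest counts in lung.

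Atp2a2 (chromosome 5, 122591575 to 122640903, minus strand) encodes SERCA2, the pump that returns calcium to the SR. Its log2 value was 18.66, 18.86 and 18.81 in the WT hearts, 18.63, 18.78 and 18.53 in the KO hearts, 12.98, 12.83 and 12.66 in the WT lungs and 12.99, 12.62 and 12.19 in the KO lungs. KO and WT overlapped in both tissues. Heart exceeded lung by 5.96 in WT and 6.05 in KO (limma, SE 0.22 each).

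Pln (chromosome 10, 53199622 to 53223512, plus strand) encodes phospholamban, a small membrane protein that holds SERCA back until it is phosphorylated. Its log2 value was 17.31, 17.27 and 17.18 in the WT hearts, 17.03, 17.27 and 17.24 in the KO hearts, 9.06, 9.16 and 9.65 in the WT lungs and 9.30, 9.001 and 9.40 in the KO lungs. It had the largest tissue difference of the 9, 7.97 in WT and 7.94 in KO (limma, SE 0.17 each), and a lung held 0.324% to 0.541% of the heart level of the same mouse. The whole reading frame has 52 codons and a stop, lies in 1 exon of the leading transcript and is shown because all 6 Pln transcripts in the table carry a reading frame of that length (GRCm39, chr10:53219960-53220118, plus strand, no bases marked).
Pln coding sequence: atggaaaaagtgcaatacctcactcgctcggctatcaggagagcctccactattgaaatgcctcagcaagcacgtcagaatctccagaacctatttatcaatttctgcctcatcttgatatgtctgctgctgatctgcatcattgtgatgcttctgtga

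Slc8a1 (chromosome 17, 81680534 to 82045891, minus strand) encodes the sodium-calcium exchanger, which moves calcium out of the cell. Its log2 value was 15.41, 15.39 and 15.28 in the WT hearts, 15.14, 14.94 and 15.26 in the KO hearts, 10.96, 10.73 and 11.24 in the WT lungs and 10.97, 10.58 and 10.66 in the KO lungs. All 3 KO hearts fell below all 3 WT hearts, while 13% of all genes tested in heart did not overlap in either direction. The lungs overlapped. The tissue difference was 4.38 in both genotypes (limma, SE 0.16 each), and the lung level was 3.97% to 6.08% of that in the heart.

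The 9 tissue differences ranked, from the largest, Pln, Hrc, Casq2, Ryr2, Trdn, Atp2a2, Jph2, Slc8a1 and Cacna1c by the mean over the 6 mice. Hrc exceeded Casq2, Ryr2 exceeded Trdn and Atp2a2 exceeded Jph2 in 6 of 6 mice, by 0.85, 0.23 and 0.92 on the log2 scale (exact two-sided sign-flip permutation test over mice, p = 0.0312 each, the smallest that 6 mice allow, and 0.0833 adjusted over the 8 neighbouring pairs). The other 5 neighbouring pairs held in 3 to 5 of 6 mice with exact permutation p from 0.0625 to 0.344, so no step between neighbours passed the adjusted threshold.

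Against the heart muscle markers, the 9 genes fell into a wide range. The median lung level over the 6 mice, as a percentage of the heart level, was 0.398% for Pln, 0.578% for Hrc, 0.947% for Casq2, 1.22% for Ryr2, 1.35% for Trdn, 1.46% for Atp2a2, 3.01% for Jph2, 4.72% for Slc8a1 and 6.74% for Cacna1c. Among 12 markers, the sarcomere genes Tnnt2, Ttn and Actn2 stood at 0.681%, 0.706% and 0.718% and the heart myosin Myh6 at 0.828%. The lowest was the ventricular light chain Myl2, at 0.0434%, and the highest were the atrial light chains Myl4 and Myl7, at 8.77% and 9.25%. Jph2, Slc8a1 and Cacna1c had medians above the other 10 markers, the highest of which was Tcap at 1.63%. How much of the lung level of each gene came from heart muscle cells was not tested.

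**Figure D2:**
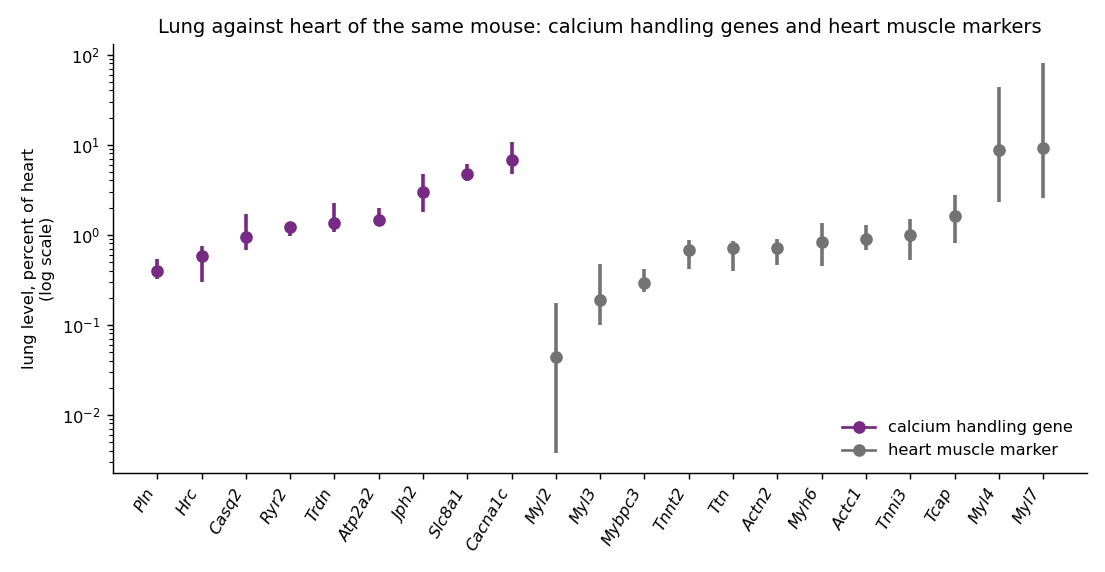
Lung level as a percentage of the level in the heart of the same mouse, on a log axis, for the 9 calcium handling genes and 12 heart muscle markers, with the median of 6 mice as a point and the lowest and highest mouse as the ends of the line. Pln and Hrc lie near most sarcomere markers, and Jph2, Slc8a1 and Cacna1c lie above them, between Tcap (1.63%) and the atrial light chains.

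The levels of the genes relative to each other differed between the tissues. Per transcript length, and taking Atp2a2 in the same library as 100%, Pln was at 38.9% ± 3.76 in heart (SD, n = 6) and 11.2% ± 3.61 in lung, and Ryr2 at 11.8% ± 1.15 and 8.89% ± 2.56. Slc8a1 went the other way, with 10.9% ± 1.61 of the Atp2a2 level in heart and 33.4% ± 7.38 in lung, and so did Cacna1c, with 2.20% ± 0.168 and 9.82% ± 3.60, and Jph2, with 3.22% ± 0.609 and 6.01% ± 0.828. The largest part of the Slc8a1 level per length came from ENSMUST00000234923, with 2 exons and 2017 bases. The leading transcript of Slc8a1 has 18464 bases and added little, so the place of Slc8a1 rests on the estimate for the short transcript. Hrc was at 7.74% ± 0.645 and 2.75% ± 0.711, Casq2 at 4.22% ± 0.720 and 3.00% ± 1.55, and Trdn at 2.67% ± 0.861 and 2.07% ± 0.439. The heart order per length was thus Atp2a2, Pln, Ryr2, Slc8a1, Hrc, Casq2, Jph2, Trdn and Cacna1c, and the lung order Atp2a2, Slc8a1, Pln, Cacna1c, Ryr2, Jph2, Casq2, Hrc and Trdn by the mean. Casq2 stood above Hrc in only 1 of 6 lungs, WT replicate 3, where Casq2 reached 5.97% of Atp2a2. The steps from Atp2a2 to the next gene and from that to the one after it held in 6 of 6 libraries in both tissues, as did Slc8a1 over Hrc and Hrc over Casq2 in heart (exact permutation p = 0.0312 each, adjusted p = 0.0833 over 16 pairs). In heart Ryr2 and Slc8a1, Jph2 and Trdn, and Trdn and Cacna1c did not differ beyond their spread, and in lung neither did Pln and Cacna1c, Cacna1c and Ryr2, or Casq2 and Hrc, with p from 0.219 to 1 (exact permutation test).

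The ratio of Pln to Atp2a2, an inhibitor and the pump it acts on, was 0.386 ± 0.0517 in WT and 0.393 ± 0.0290 in KO hearts (SD, n = 3, per length), and 0.106 ± 0.0381 in WT and 0.118 ± 0.0411 in KO lungs. The ratio was higher in the heart of 6 of 6 mice, by 1.85 ± 0.492 on the log2 scale (SD, n = 6, exact two-sided permutation test, p = 0.0312, the smallest that 6 mice allow). WT and KO overlapped in both tissues.

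Shares of some transcripts of Atp2a2, Slc8a1 and Cacna1c also lay apart between heart and lung. How many of all genes do so was not counted, and the Cacna1c transcripts were picked for how far they moved. Shares below are the estimated counts of a transcript, or of all transcripts with a given exon or start, as a percentage of the estimated counts of the gene in the same library. The reads were divided among overlapping transcripts by the authors' quantification, so a share of a form with few bases of its own is less certain than the value of its gene. For the transcript with the largest mean share of each gene, the share differed by 30.2 percentage points for Atp2a2 (higher in heart in 6 of 6 mice), by −11.6 for Slc8a1 (lower in heart in 6 of 6), each with an exact permutation p of 0.0312 and an adjusted p of 0.0938 over the 9 genes. For Hrc the share was 100% in all 6 lungs, whose 72.4 to 129 counts cannot show a minor form, so its test says nothing. The other 6 differed by −8.82 to 3.07 points, with exact permutation p from 0.0625 to 0.906, and no gene passed the adjusted threshold, which 6 mice can reach only if 6 or more of 9 genes are at the smallest p.

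Atp2a2 is known for a short pump form of heart muscle, SERCA2a, and a long form of most other cells, SERCA2b. The short form (ENSMUST00000177974, 998 codons) took 92.9%, 92.7% and 91.2% of the gene in the WT hearts and 90.9%, 92.2% and 92.5% in the KO hearts. In the lungs it took 61.4%, 61.5% and 64.3% in WT and 66.6%, 64.4% and 53.0% in KO, below every heart. The long reading frame of 1044 codons is carried by a pair of transcripts, which together took 7.07%, 7.29% and 8.79% in the WT hearts, 9.06%, 7.79% and 7.44% in the KO hearts, 38.6%, 38.0% and 35.7% in the WT lungs and 33.4%, 35.6% and 47.0% in the KO lungs. Every lung lay above every heart. The coding transcript of the pair (ENSMUST00000031423) averaged 6.75% ± 1.18 in heart and 12.7% ± 6.83 in lung (SD, n = 6) and overlapped between tissues, and the other (ENSMUST00000179939), annotated as subject to nonsense-mediated decay, averaged 1.16% ± 0.481 and 25.3% ± 6.01 and did not. The coding ends of the short and long forms are shown because they are what sets the forms apart: 30 shared bases in lower case, then the bases of each form alone in capitals, 14 and 152 with the stop codon (GRCm39, minus strand, chr5:122595366-122595395 joined to chr5:122592354-122592367 for the short form and chr5:122595214-122595395 for the long form).
Atp2a2 short form, coding end: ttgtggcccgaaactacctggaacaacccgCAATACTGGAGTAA
Atp2a2 long form, coding end: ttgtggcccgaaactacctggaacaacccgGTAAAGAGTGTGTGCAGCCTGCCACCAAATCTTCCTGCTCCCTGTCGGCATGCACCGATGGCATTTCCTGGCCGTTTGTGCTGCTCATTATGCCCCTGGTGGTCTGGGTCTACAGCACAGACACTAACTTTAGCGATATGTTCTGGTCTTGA

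Cacna1c had transcripts seen in only 1 of the tissues. Its leading transcript, ENSMUST00000186889, averaged 21.3% ± 6.38 in heart and 30.2% ± 10.1 in lung (SD, n = 6). The other transcripts and exons of this and the next paragraph were picked for how far they moved between tissues, so their values are a description with no test. ENSMUST00000187940 averaged 31.2% ± 3.80 of the gene in heart (SD, n = 6) and was listed at 0 in all 6 lungs, which at the counts of the gene there allows a share of up to 0.345% in a lung by counting error alone. ENSMUST00000188522 was listed at 0 in all 6 hearts, which allows up to 0.0343%, and averaged 48.2% ± 11.6 in lung. The latter ranged from 32.2% to 63.0% over the lungs, and the transcripts of its start region together from 57.0% to 82.4%.

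Both the start and an internal exon of Cacna1c went with the tissue. The sums for starts and exons are over whole transcripts and partly over the same ones, so they are not separate observations. Transcripts starting between 119173192 and 119173851 took 67.4% ± 6.71 of the gene in heart and 31.2% ± 9.28 in lung, and those starting between 119084936 and 119085534 took 5.43% ± 1.29 and 63.8% ± 9.65. A start at 118757285 took 26.4% ± 6.12 in heart and 3.80% ± 2.25 in lung. Cacna1c has a pair of coding exons of 104 bases each that no annotated transcript holds together, and such alternative exons are known to mark heart and smooth muscle forms of the channel. The exon of the heart-rich transcript was in 91.3%, 85.8% and 93.4% of the counts in the WT hearts and 92.4%, 90.7% and 88.0% in the KO hearts, and in 35.2%, 39.8% and 22.4% in the WT lungs and 46.3%, 36.5% and 38.2% in the KO lungs. The exon of the lung-rich transcript was in 1.78% to 9.14% of the counts in the hearts and in 53.4% to 75.2% in the lungs. The sequences are shown with the 32 positions at which they differ in capitals, 69.2% of the positions being the same (GRCm39, minus strand, chr6:118719226-118719329 for the heart form and chr6:118718832-118718935 for the lung form).
Cacna1c exon, heart form: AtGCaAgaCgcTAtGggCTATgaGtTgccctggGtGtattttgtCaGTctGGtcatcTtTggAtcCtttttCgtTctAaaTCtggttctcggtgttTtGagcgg
Cacna1c exon, lung form: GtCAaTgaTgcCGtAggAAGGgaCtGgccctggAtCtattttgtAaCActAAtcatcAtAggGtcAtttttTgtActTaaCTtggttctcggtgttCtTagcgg

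Slc8a1 differed in transcripts that hold small exons, of a kind that in this exchanger changes the large loop inside the cell. Its leading transcripts, ENSMUST00000234131 at 33.9% ± 5.32 in heart and 45.5% ± 5.43 in lung and ENSMUST00000234923 at 29.1% ± 5.80 and 31.9% ± 5.98 (SD, n = 6), were present in both tissues. Exons of 21 and 15 bases, always together here, were in 34.8%, 31.1% and 40.0% of the counts in the WT hearts and 33.5%, 37.7% and 35.4% in the KO hearts. In the lungs they were in 9.13%, 5.56% and 5.74% in WT and 7.67%, 7.82% and 6.57% in KO, below every heart. The transcripts starting at 82045891 had the same share in every library. A difference in these exons and one in this start thus cannot be told apart. An exon of 69 bases was in 69.3% ± 5.76 of the counts in heart and 52.6% ± 5.16 in lung (SD, n = 6), higher in the heart of 6 of 6 mice. The counts without it were those of ENSMUST00000234923, whose 2 exons end before it, and of ENSMUST00000249357. The share is thus not a rate at which this exon was skipped. An alternative exon of 104 bases went with lung, at 1.65% ± 0.681 in heart and 15.5% ± 2.13 in lung. This is the share of ENSMUST00000249357 alone, which is annotated as subject to nonsense-mediated decay. It has 664 codons, against 970 in the heart-rich transcript. The 3 exons of the heart-rich transcript are given because the counts of whole transcripts annotated with them were summed (GRCm39, minus strand, no bases marked). They lie at chr17:81749632-81749652, chr17:81749081-81749095 and chr17:81745174-81745242.
Slc8a1 exon of 21 bases: ccctgttgttgaatgagcttg
Slc8a1 exon of 15 bases: gaaaagagatgtatg
Slc8a1 exon of 69 bases: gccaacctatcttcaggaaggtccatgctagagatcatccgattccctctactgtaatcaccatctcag

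**Figure D3:**
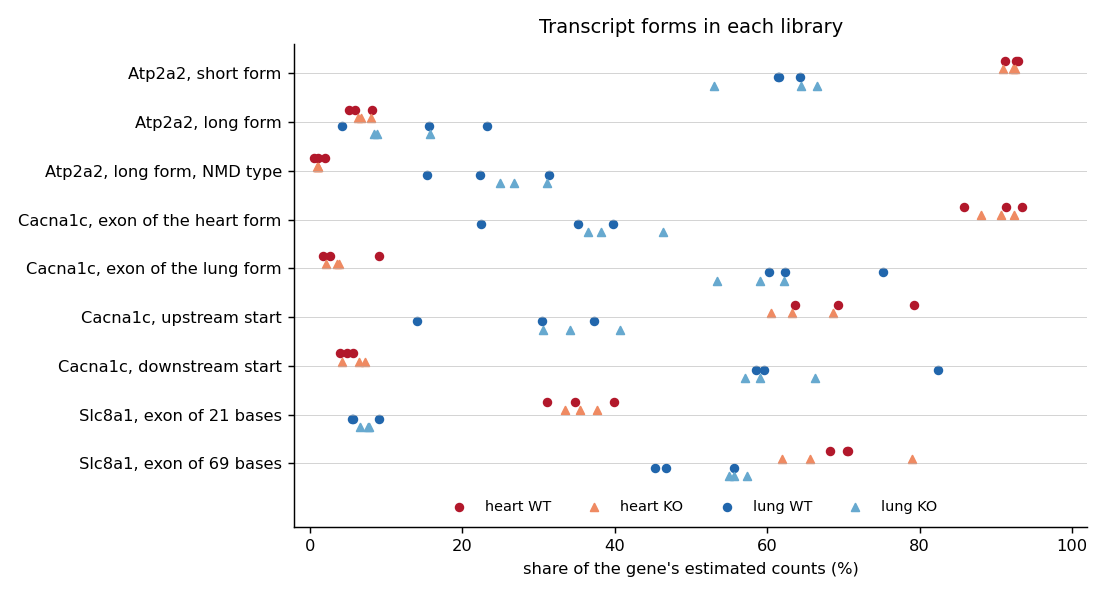
Share of the gene's estimated counts in percent (horizontal axis) for forms, exons and starts of Atp2a2, Cacna1c and Slc8a1, 1 point for each of the 12 libraries. Hearts and lungs do not overlap for the Atp2a2 short form (at least 90.9% in heart and at most 66.6% in lung) or for both Cacna1c exons of 104 bases, and do overlap for ENSMUST00000031423 (Atp2a2, long form), which takes at most 23.2% of the gene in lung.

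The other genes had 1 dominant form or forms that overlapped. The leading transcript took 96.8% of Ryr2 in heart and 93.7% in lung, 99.9% and 98.1% of Casq2, 97.0% and 96.8% of Jph2, 92.1% and 94.6% of Pln and over 99.9% of Hrc in both. Trdn was split between a transcript of 293 codons (ENSMUST00000217779), at 39.9% in heart and 45.9% in lung, and one of 693 codons (ENSMUST00000095762), at 29.2% and 24.4%. The 293-codon share was 50.2%, 32.0% and 27.8% in the WT lungs and 50.8%, 57.1% and 57.4% in the KO lungs, without overlap (exact two-sided permutation test, p = 0.1, the smallest that 3 against 3 allows). Of 18 such comparisons of a leading share, over the 9 genes and both tissues, 2 did not overlap (the other was Hrc in heart), while 11.6% of 10532 genes with several transcripts did not overlap in lung and 9.7% in heart. Those lung shares divide 81.1 to 148 estimated counts of Trdn a library, and in heart WT and KO averaged 39.9% and 40.0%.

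In the hearts, all 9 genes had a lower mean in KO than in WT, by 0.08 to 0.25 on the log2 scale, and none was called (limma), against 0.085% of the 15303 genes tested. A lower mean in KO was found for 45% of all genes tested, and the median of the 9 was −0.21 against 0.03 for all. The differences were −0.25 for Casq2, −0.24 for Slc8a1, −0.23 for Trdn, −0.21 for Hrc and Ryr2, −0.18 for Jph2, −0.17 for Cacna1c, −0.13 for Atp2a2 and −0.08 for Pln, with adjusted p from 0.740 to 0.932 (limma). None of the 9 had an unadjusted p under 0.05 in limma, and limma-voom called none of them. The 95% intervals reached from −0.68 for Ryr2 to 0.40 for Atp2a2, and those of Slc8a1, Hrc, Cacna1c and Pln lay within a 1.5-fold change in either direction. KO and WT hearts did not overlap for Slc8a1 and Hrc, 2 of 9, against 13% of all genes tested (exact two-sided permutation test, p = 0.1 for each, the smallest possible). Without the WT heart of replicate 3 the difference of Jph2 was 0.058 in place of −0.18, so its direction turned on 1 library. With quantile normalization Atp2a2 and Pln were higher in KO, by 0.097 and 0.042, which left 7 of 9 lower.

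The hearts differed from each other in markers of other cells. The log2 of the summed level of Nppa, Myl7, Myl4 and Sln was 16.57, 16.48 and 14.80 in the WT hearts and 17.19, 16.03 and 17.20 in the KO hearts, with none of the 4 at 0. The WT heart of replicate 3, lowest in these markers, was the highest in Jph2 and Cacna1c and the lowest in Trdn, Pln, Casq2 and Slc8a1 of the WT hearts. The summed level of the heart muscle markers ranged from 21.72 to 21.98 in WT and from 21.78 to 21.95 in KO hearts, with 6 of 12 lower in KO and a median difference of −0.01. Of the smooth muscle markers 6 of 7 were higher in KO, with a median of 0.62, 4 of 7 at an unadjusted p under 0.05 and none called (limma). Their summed level was 15.62, 15.54 and 15.97 in the WT hearts and 15.93, 16.07 and 15.91 in the KO hearts, with none at 0. Most of this sum was Des, at 15.07 to 15.62 in the hearts, so it says little about the other markers. Myh11, Acta2, Tagln and Cnn1 were higher in every KO heart than in every WT heart, while Des, Smtn and Actg2 overlapped. Of all genes tested 13% did not overlap. Of the 8 lung epithelium markers 7 were tested and 7 were higher in KO hearts, by a median of 0.93, none called, with summed levels of 7.58, 6.44 and 9.89 in WT and 10.75, 9.59 and 6.69 in KO. The 5 red blood cell markers had lower means in KO, with a median of −0.28 in heart and −1.08 in lung, none called. Their summed levels were 14.22, 13.54 and 15.80 in WT and 15.45, 12.81 and 14.46 in KO hearts. In the lungs they were 14.91, 14.97 and 16.66 in WT and 17.16, 12.85 and 13.45 in KO, so the groups overlapped in both tissues. Of the 4 atrial markers 4 were higher in KO hearts, with a median of 0.45. The part of these markers in the differences of the 9 genes was not tested.

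**Figure D4:**
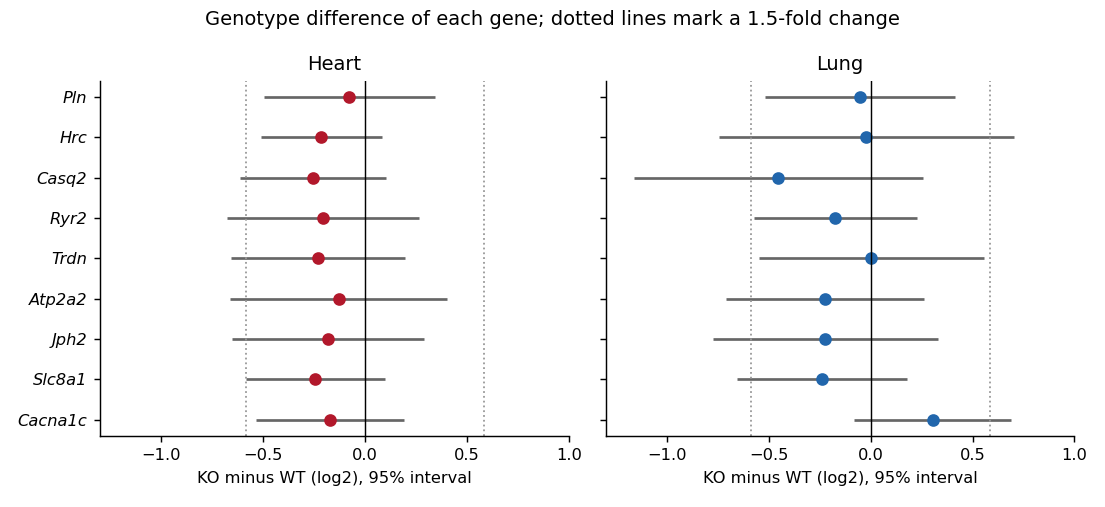
KO minus WT difference on the log2 scale (horizontal axis) of the 9 genes in heart (left) and lung (right), with the limma 95% interval as a line and dotted lines at a 1.5-fold change. All 9 heart estimates lie between −0.25 and −0.08, lung estimates between −0.45 (Casq2) and 0.30 (Cacna1c), and all intervals hold 0.

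In the lungs, 7 of 9 genes had a lower mean in KO, against 48.4% of all genes tested, and none was called (limma), against 0.0665% of 16551. Cacna1c was higher in KO by 0.30 (95% interval −0.08 to 0.69) and Casq2 lower by 0.45 (−1.16 to 0.26), and the other 7 lay between −0.24 for Slc8a1 and 0.004 for Trdn, with adjusted p from 0.841 to 0.999 (limma). None had an unadjusted p under 0.05, none was called by limma-voom, and the KO and WT lungs overlapped for all 9, while 12.8% of all genes tested did not overlap. The intervals of Casq2, Hrc, Jph2, Atp2a2, Slc8a1 and Cacna1c reach past a 1.5-fold change on at least 1 side. Without the WT lung of replicate 3 the difference of Casq2 was −0.12, and without that of replicate 2 it was −0.77.

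The KO minus WT difference was not shown to differ between the tissues for any of the 9 genes. The interaction called 0 of 9 (limma), against 0.00566% of 17666 genes, which is 1 gene. Cacna1c had the lowest p, with heart minus lung −0.48 (95% interval −0.97 to 0.01, unadjusted p = 0.0561 and adjusted p = 0.634, limma). The other 8 lay between −0.23 for Trdn and 0.20 for Casq2. None of the 9 had an unadjusted p under 0.05 in limma, against 1392 of 17666 genes tested. It was 1 of 9 with limma-voom, with median centring and with summed transcripts at a pseudocount of 1 or 5.

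The heart muscle markers moved with the lungs. Their summed level was 15.00, 14.91 and 15.50 in the WT lungs and 14.90, 14.38 and 14.42 in the KO lungs. Of the 12, 11 were lower in KO with a median of −0.59, and none was called (limma). An unadjusted p under 0.05 (limma) was found for 4 of 12, against 5.93% of all genes tested. Of the 4 atrial markers, which share Myl7 and Myl4 with the 12, 4 were lower in KO lungs, with a median of −0.68. Of the 5 skeletal markers tested 5 were lower, with a median of −1.11, none called, and the WT lung of replicate 2 stood apart in their level. None of the 12 was at 0 in all 3 lungs of a genotype. Over the 6 lungs, Pearson's r of a gene with this level was 0.94 for Slc8a1 (exact permutation p = 0.0167, adjusted p = 0.15 over the 9 genes) with Spearman's rho of 0.83 (p = 0.0583, adjusted p = 0.525), and 0.75 without the 2 lungs farthest from the median level. It was 0.86 for Casq2 (p = 0.0528, adjusted p = 0.2375, exact permutation) with rho of 0.66 (p = 0.175, adjusted p = 0.629), and 0.54 without the 2 lungs. For Cacna1c it was −0.77 (p = 0.0833, adjusted p = 0.25, exact permutation) with rho of −0.43 (p = 0.419, adjusted p = 0.629), and −0.82 without them. The other 6 had r from −0.32 for Hrc to 0.56 for Pln with p from 0.247 to 0.758 (exact permutation test, adjusted p from 0.556 to 0.758), rho from 0.029 to 0.60 with p from 0.242 to 1 (exact permutation test, adjusted p from 0.629 to 1), and r of Pln, Ryr2 and Hrc changed sign without the 2 lungs. Without them r was 0.98 for Atp2a2, 0.88 for Hrc, 0.85 for Jph2, 0.17 for Trdn, −0.32 for Ryr2 and −0.84 for Pln, so the order of the genes by r rests on those lungs. No gene passed the adjusted threshold, and each genotype alone has too few lungs for r. Whether heart muscle in the lung samples accounts for any of these values was not tested.

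**Figure D5:**
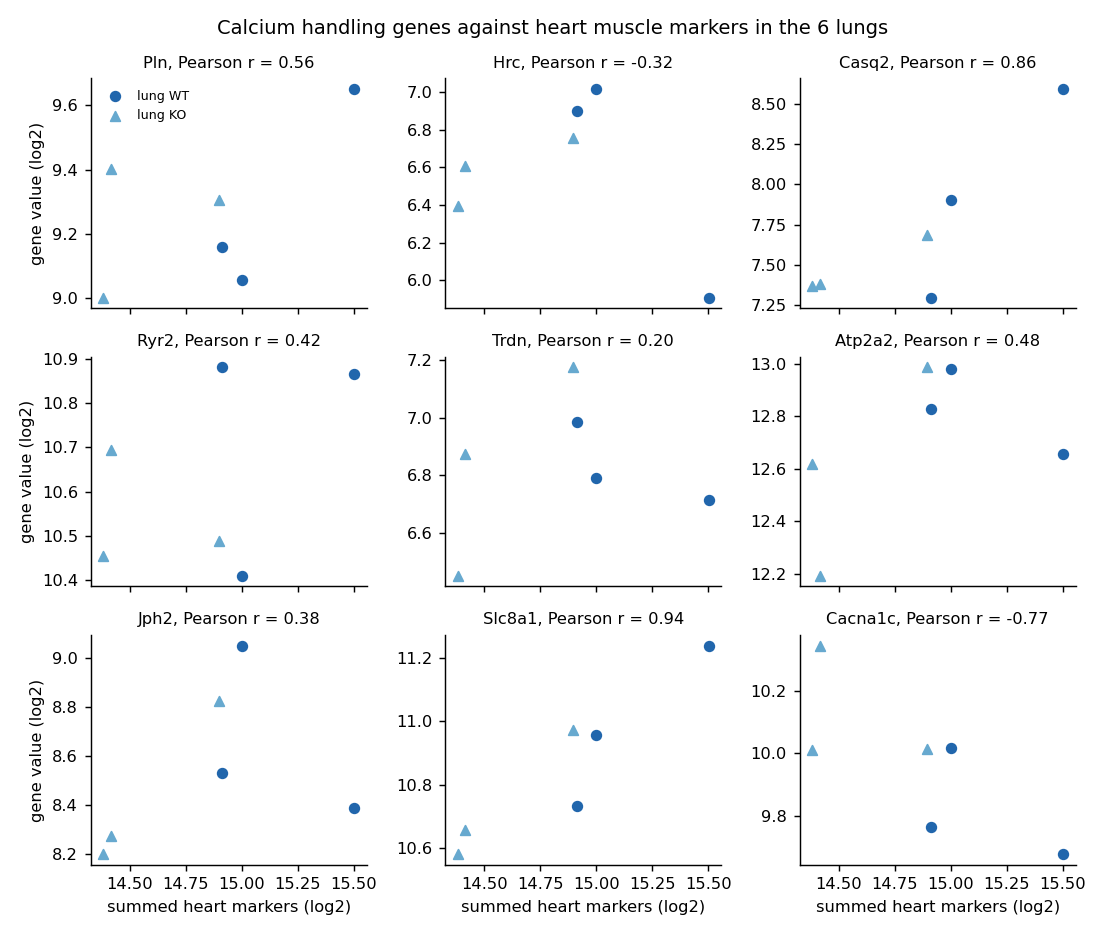
Log2 value of each gene (vertical axis, its own scale in each panel) against the log2 of the summed level of 12 heart muscle markers (horizontal axis) in the 6 lungs, 3 of each genotype. Slc8a1 has the highest r over the 6 lungs (0.94, and 0.75 without the 2 lungs farthest from the median, where Atp2a2 has 0.98) and Cacna1c falls with the marker level (r of −0.77), while Hrc is lowest in the lung with the most marker RNA.

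Lung markers of other muscle also varied. The summed level of 8 skeletal muscle markers was 9.34, 12.03 and 9.34 in the WT lungs and 9.06, 8.79 and 8.20 in the KO lungs, with Myh4 at 0 in all 3 KO lungs. Outside the WT lung of replicate 2, most of this sum was Ckm, at 7.81 to 9.17. Ckm also stood at 15.34 to 16.32 in the hearts, so there the sum does not set skeletal muscle apart from heart muscle. The summed level of 7 smooth muscle markers was 13.36 to 13.55 in WT and 13.42 to 13.90 in KO, with none at 0. In the WT lung of replicate 2, which stood apart in skeletal markers, the 9 genes stayed within the range of the other 5 lungs except Casq2, lowest at 7.29, and Ryr2, highest at 10.88. Without this lung the 9 tissue differences in WT lay between 4.09 and 7.90.

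The genes most like the 9 across the lungs were not muscle genes. Among 12873 genes with a mean of at least 6 in lung, the highest Pearson r over 6 lungs with the mean of the 9 log2 values was 0.973 for H2-Ab1, a class II antigen presentation gene, 0.971 for Trmt6 and Gabpb1, 0.970 for Mageh1 and 0.967 for Ulk3. With 6 points and this many genes the values are a description.

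Other genes of the calcium pathway were called in both directions between the tissues. Of 71 listed genes 68 were tested in WT mice, and 28 were called higher in heart, against 20.1% of all genes tested, and 19 lower, against 29.3%. In KO mice 28 were called higher, against 20.9%, and 17 lower, against 28.7%. The median difference of the 68 was 0.24, against −0.32 for all genes tested. Strit1, whose small membrane protein counters phospholamban, stood at 10.62 to 10.82 on the log2 scale in WT hearts, with at least 906 estimated counts, and at 0 to 1.66 estimated counts in each of the 6 lungs, too few to give the difference a size. Srl (sarcalumenin, a calcium binding protein of the SR), the skeletal calsequestrin Casq1, the kinase anchor Akap6 and the SR cation channel Tmem38a were higher in heart by 5.86, 5.84, 5.52 and 5.18. Among the called genes, the largest differences toward lung were those of Orai2, a store-operated channel, at −3.46, Atp2a3, the SERCA3 pump, at −3.32, Cacna1d, another L-type channel pore, at −2.97, Atp2b2, a plasma membrane pump, at −2.80 and Mcub of the mitochondrial uniporter at −1.97. All of these were called (limma, adjusted p at most 0.00032).

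Close relatives of the 9 genes did not share a pattern. Sln, the small SERCA inhibitor of the atria, was called higher in heart by 2.95 in WT and 3.80 in KO, with WT hearts at 12.28, 12.65 and 9.83. Jph1, Cacna1s and Ryr3 were called higher in heart, by 4.21, 1.61 and 1.47 in WT. Atp2a1, the skeletal muscle pump, differed by −0.05 and was not called, with lungs at 1.62, 7.66 and 4.18 in WT. Ryr1, the skeletal release channel, was lower in heart by 3.69 but under the level threshold, with the same lung of replicate 2 highest at 7.91, and Slc8a2 and Slc8a3 differed by 1.78 and −1.74, also under it. By role in WT mice, to be read against 20.1% of all genes called higher and 29.3% called lower, 5 of 8 SR buffers and junction proteins were called higher in heart and 1 lower (Bin1, at −1.60, named after its value was seen), and 6 of 10 L-type channel subunits higher and 2 lower. On the list of 12 kinases, phosphatases, their anchors and inhibitor, and phosphodiesterases, 8 were called higher and none lower. Among the release channels and their partners 1 of 10 was called higher and 5 lower, and in calcium extrusion 0 of 7 were called higher and 4 lower. In store-operated entry 1 of 6 was called higher and 3 lower, in mitochondrial calcium 4 of 8 higher and 2 lower, and in SR uptake 3 of 7 higher and 2 lower.

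Between KO and WT, 0 of 67 listed genes tested in heart and 0 of 65 in lung were called (limma), against 0.085% and 0.0665% of all genes tested, and limma-voom also called none. An unadjusted p under 0.05 (limma) was found for 4 in heart, against 7.46% of all genes tested, and for 3 in lung, against 5.93%. The median difference of the listed genes was 0.02 in heart and −0.03 in lung, against 0.03 and 0.01 for all genes tested.

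The bases upstream of the starts held few of the motifs searched. In the 250 bases before the outermost annotated start of the leading transcript (GENCODE vM39, GRCm39, both strands), the letters TATAAA were found for Pln and Trdn, 2 of 9. They were found in 11.9% of 21757 protein-coding promoters, taken as the 250 bases before the start of the transcript annotated as canonical. The leading transcripts of Cacna1c and Slc8a1 do not begin at the canonical start, so their windows are of another kind. The GATA factor letters AGATAA were found for Cacna1c, 1 of 9, and in 9.61% of promoters.

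The letters CTANNNNTAG, a looser pattern than the MEF2 site, were found in the same window for Slc8a1, 1 of 9, and in 3.31% of promoters, and the match of Slc8a1 does not have the middle of A and T bases that a MEF2 site has. The CArG box was found for none of the 9 and in 1.40% of promoters. A match is a description of the letters and not a bound site.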

How the data were processed

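Strand-specific libraries were made from total RNA of heart and lung, and the authors deposited 2 tables with log2 values, 1 column per library. Per the submitters' notes and the methods, reads went through cutadapt and STAR and were quantified with Salmon against GENCODE vM33 transcripts of mm39. Each deposited transcript value is the log2 of an estimated count plus 1. Gene values carry a further constant for each library (−0.63 to 0.80), and how transcripts were combined into genes is not given in the sources used here. No other sample column was present, and no authors' comparison column was used. Because the depth behind a value is an estimate that shares reads between transcripts, floors of 3 counts cover counting error only. The limma intervals rest on the spread between the libraries of separate mice.

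Groups came from the sample titles. Genotypes were compared within each tissue and tissues in 1 model of 4 group means, with limma 3.58.1 (lmFit and eBayes with trend) in R 4.3.3 on the deposited gene values. The filter kept genes whose deposited value reached 3.46, the log2 of 10 plus 1, in 3 or more libraries. Because of the constants, this value stands for a different estimated count in each library. Calls needed a Benjamini-Hochberg adjusted p below 0.05, a change of 1.5-fold or more and a group mean of 6 or more. The steps were tested on simulated data. Single values were compared with exact permutation tests (scipy 1.17.1). Replicates are separate mice. Levels per length divided estimated counts by GENCODE vM39 transcript lengths, matched by unversioned identifier for 74 of 76 transcripts of the 9 genes. Coordinates, exons and sequences are from GENCODE vM39 and GRCm39, the same assembly as mm39. Transcript starts within 1000 bases of each other were joined.

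The pairing of heart and lung comes from the mouse identifiers in the titles. Deviations from group means of 17666 genes correlated between the heart and lung of a mouse at 0.049, 0.136 and −0.024 in WT and 0.020, −0.068 and −0.036 in KO. The genes and lists were chosen with earlier results of these data known. Named genes are the 9, 11 close relatives and the 5 genes most like the 9 over the lungs. The 5 listed pathway genes with the largest called difference toward each tissue in WT are also named. Named transcripts are the leading ones and those with at least 20% of a gene. Single exons, starts, ENSMUST00000031423 and ENSMUST00000249357 were picked after their values were seen. Alternatives were other scalings, filters, pseudocounts, limma-voom, a mouse block and leaving out each library.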

Additional observations from a re-analysis of the deposited data

How the results depend on the processing

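The number of the 9 genes called stayed at 0 in heart, 0 in lung, 9 in each tissue comparison and 0 for the interaction under every alternative run, and no leading transcript share or lung correlation passed under any. With the mouse as a replicate block these counts were again 0, 0, 9, 9 and 0, and the pairing changed no call among the 9. Over all genes, calls moved by more than 1.5 times in few settings: 13 in heart became 7 and 11 in lung became 1 with the filter in every library, and the 1 interaction call became 0 with median centring, 2 with a pseudocount of 5 on summed transcripts and 2 with the replicate block. Leaving out 1 library gave 10 to 21 calls in heart, with 21 without the KO heart of replicate 2, and 0 to 5 for the interaction, with 5 without the WT heart of replicate 3.

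Differences near 0 changed sign. With quantile normalization, heart KO minus WT was 0.10 for Atp2a2 and 0.042 for Pln, lung KO minus WT was −0.028 for Trdn, and the interaction was 0.020 for Ryr2, 0.12 for Pln and 0.065 for Slc8a1. With median centring the interaction of Jph2 was −0.025. On summed transcripts Trdn in lung was −0.17 with a pseudocount of 1, −0.18 with 5 and −0.19 with limma-voom, which also gave 0.015 for Hrc in lung and 0.012 for the Trdn interaction. Leaving out 1 library, Jph2 in heart ranged from −0.32 to 0.058, and in lung Trdn from −0.17 to 0.20, Hrc from −0.37 to 0.18 and Pln from −0.17 to 0.13. The interaction ranged from −0.16 to 0.28 for Jph2, −0.14 to 0.12 for Slc8a1, −0.21 to 0.092 for Pln, −0.14 to 0.12 for Ryr2, −0.13 to 0.52 for Casq2, −0.40 to 0.16 for Hrc and −0.11 to 0.29 for Atp2a2. None of these passed the test, and the cause was not tested.

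With 3 mice a genotype, exact tests cannot go below 0.1, and without 1 mouse the 5 others cannot reach 0.05 in a paired test. Low lung counts limit Trdn, Hrc and Casq2.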
